A study of Mus musculus with 24 samples.

Results

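The glutamate receptor genes of the mouse hippocampus were followed across the 4 genotypes of a Nestin-Cre Egr1 conditional knockout (Egr1cKO) study. The set holds 32 of the 36605 genes in the count table, taken by symbol from the receptor families and matched to Ensembl identifiers. It comprises 4 AMPA, 7 NMDA and 5 kainate receptor subunits, the delta receptor subunit Grid1, 7 metabotropic receptors and 8 auxiliary subunits of AMPA receptors.

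Hippocampal RNA came from 24 adult mice, 3 males and 3 females of each genotype, with 18025168 to 34955004 counted reads per mouse. Wild-type mice (Egr1wt Nes Cre-) carry neither a floxed Egr1 allele nor Cre. Egr1f Cre- mice carry floxed Egr1 alleles, from a C57BL/6N strain, without Cre. Nestin-Cre control mice (Egr1wt Nes Cre+) carry the B6.Cg-Tg(Nes-Cre)1Kln/J transgene with unfloxed Egr1, and Egr1cKO mice (Egr1f Nes Cre+) carry both. The transgene uses the Nestin promoter, which drives Cre in dividing neural precursors across the brain, and deletion is thus not limited to the hippocampus or to mature neurons. The mice of the Egr1wt and Egr1f genotypes carry numbers from separate series, so the floxed allele and the series of mice cannot be told apart. The sources used here give no age beyond adult and do not say whether the mice were littermates.

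Glutamate acts on ion channels and on G protein-coupled receptors. AMPA receptors carry most of the fast excitatory current, NMDA receptors pass calcium when glutamate binds while the membrane is depolarized, and kainate receptors work on both sides of the synapse. Metabotropic receptors signal through G proteins, group I mainly after the synapse and groups II and III mainly as brakes on release. Auxiliary subunits such as the TARPs (Cacng genes) and cornichons (Cnih genes) travel with AMPA receptors and set their trafficking and gating. Egr1 encodes a zinc finger transcription factor induced by synaptic activity.

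The pore of each AMPA and kainate subunit is lined by a loop that holds the Q/R site, where the genome codes for glutamine. In Gria2, RNA editing changes the product to arginine and closes the channel to calcium, and the kainate subunits Grik1 and Grik2 are edited at the same site in part. Counts per gene do not show editing. The 30 coding bases around this codon are given because they show that Gria2 shares the glutamine codon with subunits that are not edited there. The capitals mark the codon of the site, on GRCm38 and in the direction of transcription.
Gria1, chr11:57243082-57243111, plus strand: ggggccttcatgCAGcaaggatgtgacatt
Gria2, chr3:80706896-80706925, minus strand: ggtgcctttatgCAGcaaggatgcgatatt
Gria3, chrX:41610253-41610282, plus strand: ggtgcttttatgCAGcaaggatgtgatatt
Gria4, chr9:4464122-4464151, minus strand: ggtgcctttatgCAAcaaggatgtgacatt
Grik4, chr9:42547608-42547637, minus strand: ggaggcttcatgCAGcaaggctccactatt
Grik5, chr7:25022482-25022511, minus strand: ggtggcttcatgCAGcagggctcggagatc
Compared with Gria2, 2 of the 10 codons in this stretch differed in Gria3, 3 in Gria4, 4 in Gria1, 6 in Grik4 and 7 in Grik5. The windows of Grik1, Grik2 and Grik3 cross an exon junction and are not shown.

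The EGR1 protein binds GC-rich sites, and promoters were therefore searched on both strands for GCGTGGGCG and GCGGGGGCG, which differ from each other at a single base. RefSeq promoters on GRCm38, from 250 bases before to 50 after each start, were given for 22 of the 32 members. A match was found in 2 of these 22 (9.09%), Grin1 and Grm3, against 1063 of 27025 symbols with a promoter (3.93%). The match began 4 bases after the start in Grin1 and 4 bases before it in Grm3, and both matched GCGGGGGCG. Each stretch below ends at the match, which is in capitals.
Grin1, chr2:25319175-25319337, minus strand: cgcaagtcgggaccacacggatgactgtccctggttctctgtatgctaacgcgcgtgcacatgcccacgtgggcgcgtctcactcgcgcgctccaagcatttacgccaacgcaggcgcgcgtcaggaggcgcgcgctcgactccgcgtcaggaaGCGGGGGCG
Grm3, chr5:9725348-9725502, minus strand: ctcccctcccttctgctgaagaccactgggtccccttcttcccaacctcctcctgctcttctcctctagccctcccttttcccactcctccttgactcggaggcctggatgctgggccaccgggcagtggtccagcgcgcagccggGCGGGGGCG
A match of these letters is a description of the sequence and does not show that EGR1 binds there. Gria1, Gria3, Grin2a, Grin2b, Grin3a, Grik1, Grid1, Grm5, Grm4 and Cacng4 had no promoter in the table.

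Egr1 itself checked the genotype labels. In CPM (the read count of a gene relative to the size of its library, scaled by TMM), its lowest, median and highest values were 4.90, 8.20 and 10.2 in the 6 Egr1cKO mice and 47.6, 96.7 and 149 in the 18 other mice, called Egr1-intact here. Every Egr1cKO mouse was below every Egr1-intact mouse, with a log2FC of -3.59 (SE 0.23, adjusted p = 1.19e-11, edgeR quasi-likelihood test). The tissue label was also checked. The labels name the cell type as endocrine, yet the pituitary hormone genes Gh, Prl and Cga were without a count in 10, 15 and 23 of the 24 mice, and the 5 listed pituitary markers with a count summed to at most 3.85 CPM in any mouse. The 4 CA1 markers summed to 505 to 829 CPM and the 4 dentate gyrus markers to 176 to 509 CPM, so the libraries carried the RNA of hippocampal neurons.

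To compare levels between genes, CPM values were divided by the exonic length in kb (FPKM). In wild-type mice, the auxiliary subunit Cnih2 had the highest level of the 32 genes, 399 ± 50.4 FPKM (SD, n = 6), with Gria1, which encodes the GluA1 subunit, next at 189 ± 13.5. No wild-type mouse broke this order. Cacng8, the hippocampal TARP gamma-8, followed at 69.1 ± 8.73, beside Gria2 at 67.0 ± 2.47 and the kainate subunit Grik5 at 60.2 ± 4.25. The obligatory NMDA subunit Grin1 was at 40.0 ± 3.53, Grin2b at 34.1 ± 2.7, Grm5 at 32.5 ± 2.19 and Grin2a at 23.8 ± 2.62. Between neighbours in the order of the 32 genes, the ranges of the 6 wild-type mice overlapped at 23 of the 31 steps. They were separate below Cnih2, Gria1, Cacng7, Grm5, Cacng3, Grid1, Grin2d and Grik1. These values depend on the length used. With the longest transcript in place of all exons, Grin1 rose from 40.0 to 90.7 FPKM and Gria2 from 67.0 to 101, while Gria1 moved only to 206.

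**Figure D1:**
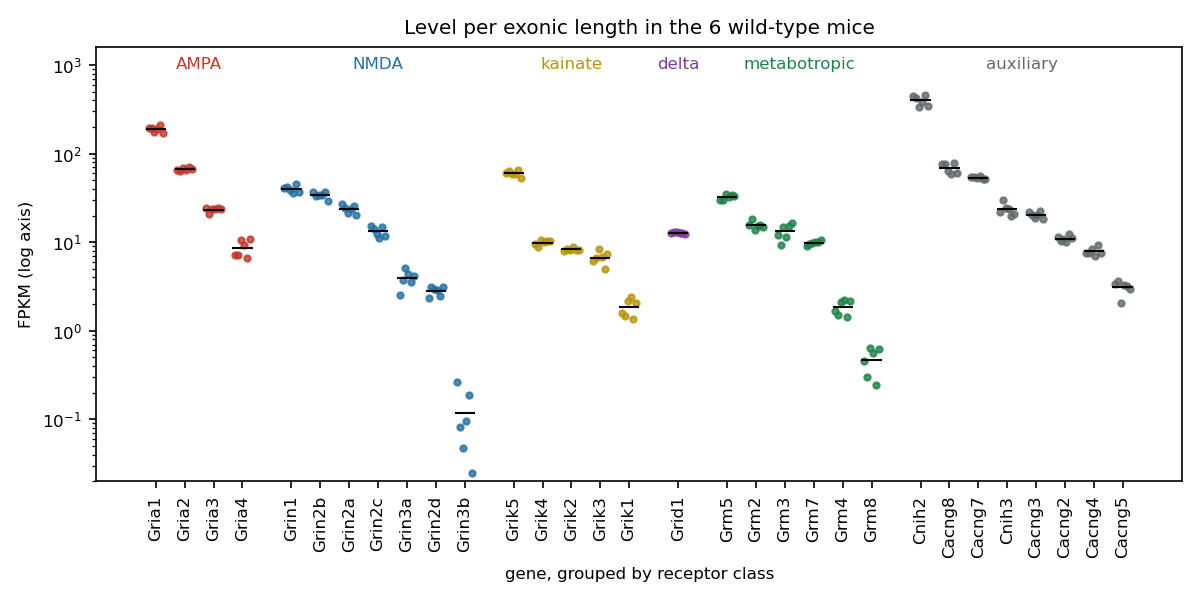
Level per exonic length (FPKM, log axis) of 31 genes in each of the 6 wild-type mice (points) with the mean (line), grouped by class and ordered within it. Cnih2 at 399 FPKM and Gria1 at 189 stand above the rest, and Grin3b is at 0.117. Grm6, without a count in 5 of the 6 mice, is not drawn.

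Members near the floor were the retinal receptor Grm6 and the NMDA subunit Grin3b. Grm6 had 8 reads in all 24 mice together, 5 in male wild type replicate 2 and 3 in female Nestin-Cre control replicate 3, and was not tested. Grin3b had 209 reads over the 24 mice, and of its 3296 exonic bases 1059 overlap Tmem259 on the other strand, whose reads a library without strand cannot separate. Grin1 shares 1307 of 9700 exonic bases with the antisense gene Grin1os in the same way. In these bulk samples, fewer cells of a type and less RNA per cell cannot be told apart.

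Among the 24 receptor genes, AMPA subunits made up 49.7 ± 0.44% of the summed FPKM of wild-type mice (n = 6), NMDA subunits 20.4 ± 0.86%, kainate subunits 15.03 ± 0.33%, metabotropic receptors 12.7 ± 0.91% and Grid1 2.21 ± 0.084%. Gria1 held most of the AMPA share and Grik5 most of the kainate share. In Egr1cKO mice these shares were 48.7 ± 1.51%, 20.5 ± 0.92%, 15.1 ± 1.89%, 13.4 ± 0.50% and 2.29 ± 0.19%. For each class the Egr1cKO range overlapped that of every other genotype. The metabotropic share ran from 12.6 to 14.0% in Egr1cKO mice, from 11.3 to 13.8% in Egr1f Cre- mice and from 11.8 to 15.3% in Nestin-Cre controls. The auxiliary subunits summed to 588 ± 61.4 FPKM in wild-type and 589 ± 65.4 in Egr1cKO mice. No test was made on sums over the members.

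Ratios within a mouse describe the makeup of the receptor pool at the RNA level. Gria1 to Gria2 was 2.82 ± 0.22 in wild-type, 3.13 ± 0.29 in Egr1f Cre-, 2.91 ± 0.36 in Nestin-Cre control and 2.91 ± 0.19 in Egr1cKO mice. Grin2a to Grin2b, a ratio that rises as the forebrain matures, was 0.695 ± 0.040, 0.764 ± 0.11, 0.747 ± 0.13 and 0.626 ± 0.11 in the same order. It ran from 0.460 to 0.758 in Egr1cKO mice and from 0.576 to 0.894 in Egr1-intact mice, so the groups overlapped over much of their range. Cacng8 to Cacng2 was 6.30 ± 0.67, 6.28 ± 0.83, 5.70 ± 1.04 and 5.87 ± 0.74.

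The first comparison asked whether loss of Egr1 moves these genes, with 6 Egr1cKO against 18 Egr1-intact mice. No receptor or auxiliary subunit gene passed the test, and the estimates of most were small. A gene was called where its adjusted p was 0.05 or lower and its fold change (FC) 1.2 or more. Of the 31 members tested, 0 were called by edgeR or by DESeq2, where edgeR called 1 of 18433 genes (0.00543%), Egr1 itself. At an unadjusted p under 0.05 there were 6 members (15.1% of all genes), 5 of them higher (8.11%) and 1, Grin3b, lower (7.0%). The median log2FC of the members was 0.074, with 25 above 0 and 6 below, against a median of -0.0076 over all genes, 48.2% of which were above 0. For 18 of the 31 members the 95% interval lay inside a 1.2-fold change in either direction. For no member were the 6 Egr1cKO mice apart from the 18 others in CPM, as was the case for 0.0109% of all genes.

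**Figure D2:**
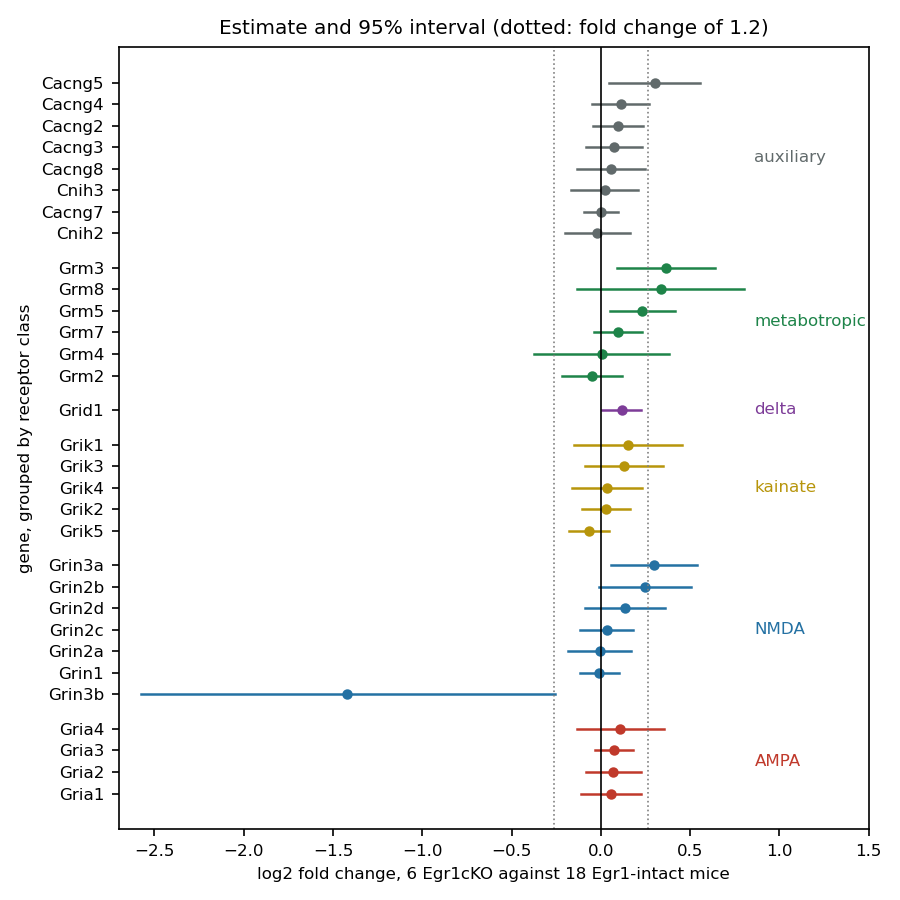
Log2FC of the 31 tested members in 6 Egr1cKO against 18 Egr1-intact mice with its 95% interval, grouped by class, with dotted lines at a 1.2-fold change. Most intervals cross 0, and the widest, that of Grin3b from -2.58 to -0.26, rests on few reads.

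The 4 AMPA subunits had log2FCs between 0.058 and 0.11, and none had an unadjusted p under 0.05. Gria1 (ENSMUSG00000020524, chromosome 11, 57011387 to 57330244 on GRCm38, like all positions here), the most abundant receptor gene, ran from 829 to 1246 CPM in Egr1cKO mice, with a median of 1193. In Egr1-intact mice it ran from 719 to 1312 CPM, with a median of 1063. The Egr1cKO range lay inside that of the controls, with a log2FC of 0.058 (SE 0.082, 95% interval -0.11 to 0.23, adjusted p = 0.76 from edgeR). With 1 mouse left out this log2FC ran from 0.025 to 0.13. Gria4 (ENSMUSG00000025892, chromosome 9), which encodes a subunit with rapid kinetics that is common in interneurons, had the largest log2FC of the class, 0.11 (SE 0.12, adjusted p = 0.69 from edgeR). Its lowest, median and highest values were 40.7, 60.0 and 83.7 CPM in Egr1cKO mice and 42.3, 55.0 and 85.4 CPM in Egr1-intact mice. Gria2 and Gria3 had log2FCs of 0.070 (SE 0.076) and 0.074 (SE 0.051). That of Gria2 ran from 0.028 to 0.12 with 1 mouse left out.

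Among the 7 NMDA subunits, Grin1 had an estimate within its error. It ran from 340 to 400 CPM in Egr1cKO and from 337 to 440 CPM in Egr1-intact mice, with medians of 374 and 368 (log2FC -0.0077, 95% interval -0.12 to 0.10, adjusted p = 0.96 from edgeR). Grin2a, the subunit of mature synapses, was as flat, at -0.0063 (SE 0.086). Grin2b (ENSMUSG00000030209, chromosome 6, 135713233 to 136173511), the subunit that prevails early in life, ran from 527 to 1270 CPM in Egr1cKO mice, with a median of 926. In Egr1-intact mice it ran from 561 to 1191 CPM, with a median of 726. Male Egr1cKO replicate 3 was the lowest of all 24 mice for Grin2b and male Egr1cKO replicate 1 the highest, and the log2FC of 0.25 had an SE of 0.13 and an adjusted p of 0.34 from edgeR. With 1 mouse left out it ran from 0.14, without male Egr1cKO replicate 1, to 0.37, without male Egr1cKO replicate 3.

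Grin3a and Grin3b encode subunits that lower the calcium flow of NMDA receptors. Grin3a had 33.5, 59.2 and 64.5 CPM as its lowest, median and highest values in Egr1cKO mice and 31.0, 46.8 and 63.3 CPM in Egr1-intact mice. In 5 of the 6 Egr1cKO mice Grin3a was at or above 56.1 CPM, and male replicate 2 was at 33.5 (log2FC 0.30, SE 0.12, adjusted p = 0.25 from edgeR). Grin3b had the largest estimate of the class, -1.42 (SE 0.57), on 0 to 7 reads per Egr1cKO mouse and 1 to 28 reads per Egr1-intact mouse. In 1 Egr1cKO mouse Grin3b had no read, and the fitted value rests on these few reads. No Egr1cKO mouse reached the minimum of 10 reads that the filter is built on, so Grin3b entered the fits through Egr1-intact mice alone, and its lower estimates in Egr1cKO mice, here and in the other comparisons, are descriptions that the filter favours.

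The 5 kainate subunits had log2FCs between -0.067 and 0.15. Grik5 (ENSMUSG00000003378, chromosome 7, 25009849 to 25072346), the most abundant, encodes a high-affinity subunit that needs a partner to form a channel. It ran from 281 to 338 CPM in Egr1cKO mice and from 277 to 363 CPM in Egr1-intact mice, with medians of 312 and 326 (log2FC -0.067, SE 0.054, adjusted p = 0.57 from edgeR). Grik1, with the largest estimate, had 8.92, 13.1 and 22.5 CPM as its lowest, median and highest values in Egr1cKO mice and 9.14, 11.8 and 19.1 CPM in Egr1-intact mice. Its log2FC of 0.15 (SE 0.15, adjusted p = 0.64 from edgeR) rested on the value of male Egr1cKO replicate 3, the highest of the 24 mice, and fell to -0.028 without that mouse. Grid1, the delta receptor subunit, which binds cerebellins at the synapse and not glutamate as a transmitter, was at 70.5 to 90.5 CPM in Egr1cKO and 64.9 to 86.1 CPM in Egr1-intact mice (log2FC 0.12, SE 0.054, adjusted p = 0.31 from edgeR).

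The metabotropic receptors held the largest estimates after Grin3b. Grm3 (ENSMUSG00000003974, chromosome 5, 9485541 to 9725170), a group II receptor found on astrocytes and neurons, had 35.2, 51.3 and 56.6 CPM as its lowest, median and highest values in Egr1cKO mice. The corresponding values were 25.2, 36.6 and 55.4 CPM in the Egr1-intact mice. The Egr1cKO females, at 49.7 to 54.6 CPM, were close together, and males ran from 35.2 to 56.6 CPM. The log2FC was 0.37 (SE 0.13, 95% interval 0.092 to 0.64, adjusted p = 0.23 from edgeR). Grm5 (ENSMUSG00000049583, chromosome 7, 87584168 to 88134907), the group I receptor coupled to calcium release, had 274, 371 and 395 CPM in Egr1cKO mice and 233, 303 and 386 CPM in Egr1-intact mice. In 5 of the 6 Egr1cKO mice Grm5 was at or above 352 CPM, while male replicate 3 was at 274 (log2FC 0.23, SE 0.089, adjusted p = 0.24 from edgeR). Grm2, Grm4, Grm7 and Grm8 had log2FCs of -0.050, 0.0043, 0.097 and 0.34, with SEs from 0.065 to 0.23.

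**Figure D3:**
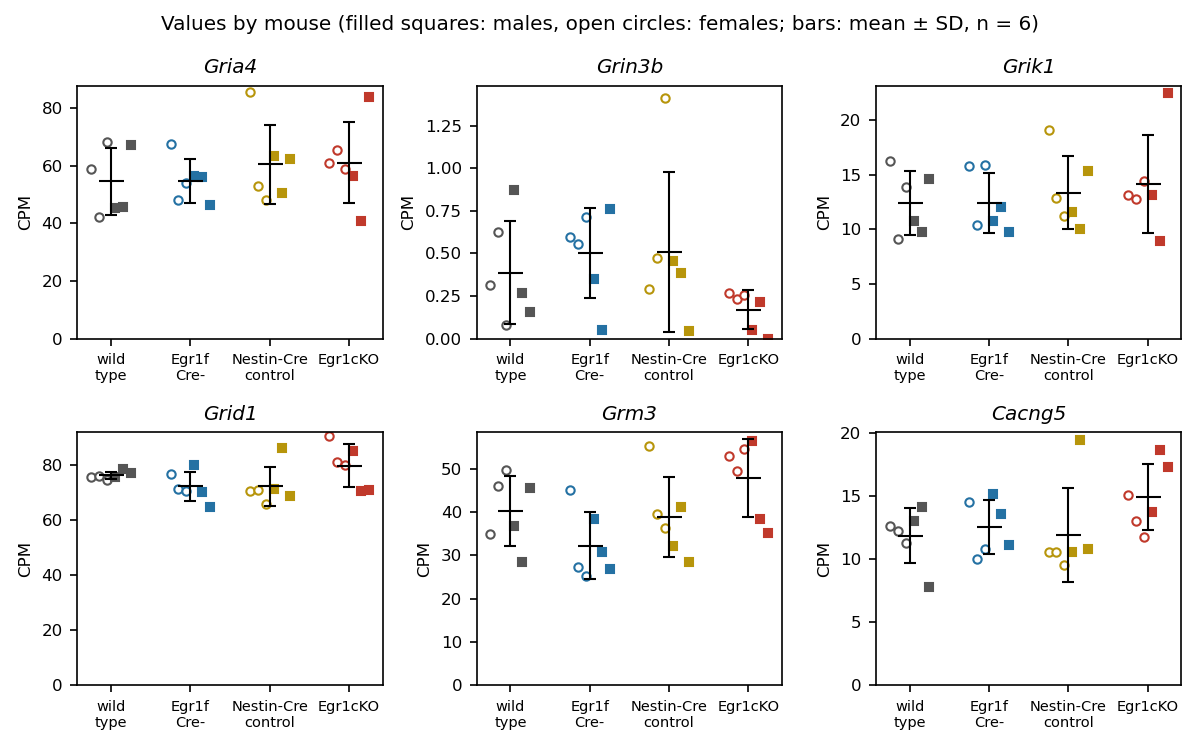
CPM of the member with the largest log2FC of its class in each of the 24 mice, by genotype, with the mean ± SD (n = 6). In each panel the Egr1cKO mice overlap those of every other genotype. For Grm3 they run from 35.2 to 56.6 CPM beside 25.2 to 55.4 CPM in the Egr1-intact mice.

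The 8 auxiliary subunits had log2FCs between -0.019 and 0.30. Cnih2, which slows the closing of AMPA receptors, ran from 449 to 665 CPM in Egr1cKO and from 344 to 642 CPM in Egr1-intact mice (log2FC -0.019, SE 0.089, adjusted p = 0.94 from edgeR). Cacng7 was estimated most closely of all 31 members, at 0.00041 with a 95% interval from -0.095 to 0.096. Cacng5, a TARP of low abundance, had 11.7, 14.4 and 18.6 CPM in Egr1cKO mice and 7.80, 11.2 and 19.5 CPM in Egr1-intact mice. No Egr1cKO mouse was below the median of the controls, yet the highest value of all was a control, male Nestin-Cre control replicate 2 (log2FC 0.30, SE 0.12, adjusted p = 0.26 from edgeR).

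Genes that work with these receptors were counted from 3 lists. Of 17 other partners of AMPA and kainate receptors, 20 postsynaptic scaffold and signalling genes and 12 genes of glutamate transport and metabolism, 0 were called in Egr1cKO against Egr1-intact mice. At an unadjusted p under 0.05, 3 partners were higher and 2 lower, 7 scaffold genes were higher and 2 transport genes were higher, beside 8.11% of all genes higher and 7.0% lower. The median log2FCs of the lists were 0.11, 0.099 and 0.031, beside -0.0076 over all genes. Among the most abundant, the CaM kinase gene Camk2a was at 677 ± 75.2 FPKM in Egr1cKO and 606 ± 81.7 in Egr1-intact mice (log2FC 0.16, SE 0.080, adjusted p = 0.34 from edgeR), and its inhibitor Camk2n1 had a log2FC of 0.014 (SE 0.092). The pentraxin receptor gene Nptxr, whose product clusters AMPA receptors, was at 197 ± 16.4 and 181 ± 15.3 FPKM (log2FC 0.12, adjusted p = 0.33 from edgeR), and Nptx1 had a log2FC of 0.11 (SE 0.096). The vesicular transporter Slc17a7 and the glutamine synthetase gene Glul had log2FCs of 0.057 (SE 0.049) and 0.0058 (SE 0.066).

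Each arm was then compared with its own control. These comparisons share mice, so their values are given side by side. Against Egr1f Cre- mice, 0 of 31 members were called in Egr1cKO mice by edgeR or DESeq2 beside 0.0326% of all genes, and 8 had an unadjusted p under 0.05 (16.1% of all genes), 6 higher (8.24%) and 2 lower (7.83%). Against Nestin-Cre controls, 0 were called by either tool beside 0.00543%, and 4 had an unadjusted p under 0.05 (15.7%), 3 higher (8.56%) and 1 lower (7.18%). The 95% interval lay inside a 1.2-fold change for 5 of 31 members against Egr1f Cre- mice and for 11 against Nestin-Cre controls. For no member were the 6 Egr1cKO mice apart from the 6 Egr1f Cre- mice (0.456% of all genes) or from the 6 Nestin-Cre controls (0.363%). The lowest, median and highest values of Grm3 were 25.2, 29.1 and 45.1 CPM in Egr1f Cre- mice, 28.5, 38.0 and 55.4 in Nestin-Cre controls and 28.5, 41.3 and 49.8 in wild-type mice. The log2FC of Grm3 in Egr1cKO mice was 0.55 against Egr1f Cre- mice (SE 0.15, adjusted p = 0.21 from edgeR), the largest of any member past Grin3b, and 4 of the 6 Egr1cKO mice were above all Egr1f Cre- mice. Grm5 had log2FCs of 0.34 (SE 0.11) against Egr1f Cre- mice and 0.26 (SE 0.11) against Nestin-Cre controls.

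Neither allele alone moved a member past the threshold, but most intervals were wide. The 95% interval lay inside a 1.2-fold change for 8 of 31 members with the floxed allele and for 9 with Cre. For the others a change of that size is not excluded. Between Egr1f Cre- and wild-type mice 0 of 31 members were called by edgeR or DESeq2, as were 0 of 18433 genes by edgeR, and 3 had an unadjusted p under 0.05 (6.97% of all genes), 1 higher (4.02%) and 2 lower (2.95%). These were Gria2 with a log2FC of -0.22 (SE 0.087), Grm5 with -0.24 (SE 0.11) and Grin2c, an NMDA subunit of astrocytes and cerebellar granule cells, with 0.20 (SE 0.084), all with an adjusted p of 0.69 from edgeR. Between Nestin-Cre control and wild-type mice 0 of 31 were called by either tool, again with 0 of 18433 genes by edgeR, and 0 had an unadjusted p under 0.05 (6.06% of all genes). In neither comparison were the 6 mice of the groups apart for any member, beside 0.293% and 0.260% of all genes.

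The interaction of floxP and Nestin-Cre asks whether the effect of Cre differs between floxed and unfloxed mice. By edgeR 0 of 31 members were called, with 0.00543% of all genes, and 7 had an unadjusted p under 0.05 (19.2% of all genes), 6 higher (9.92%) and 1 lower (9.31%). The 95% interval lay inside a 1.2-fold change for only 1 of the 31 members. Grm5 was nearest to the threshold, at 0.50 (SE 0.15, adjusted p = 0.15 from edgeR). DESeq2 gave an adjusted p for 14 members and 3250 genes. It called 306 genes and, of the members, Grm5 at 0.50 (adjusted p = 0.0438). Gria2 was at 0.34 (SE 0.12), Grin2b at 0.51 (SE 0.22) and Grm3 at 0.61 (SE 0.21). Markers of other cells stood beside these values. Of 5 choroid plexus markers tested, 4 were lower at an unadjusted p under 0.05 for the interaction (median -3.27) and 4 were higher in Nestin-Cre control against wild-type mice (median 2.47). Led by Ttr, the 6 choroid plexus markers summed to 33.1 to 44.8 CPM in wild-type, 54.0 to 2037 CPM in Nestin-Cre control, 33.9 to 1021 CPM in Egr1f Cre- and 30.2 to 1125 CPM in Egr1cKO mice. Of 4 oligodendrocyte markers, 3 were lower for the interaction (median -0.36), and none of these markers was called by edgeR. By edgeR 0 members were called for the interaction without the 5 mice over 100 CPM of Ttr, as with all mice. That count therefore says nothing about the DESeq2 call of Grm5.

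These counts depended on single mice and on the filter on low counts. Without the filter edgeR called 4 members between Egr1cKO and Egr1f Cre- mice, among 803 of 36605 genes. The lowest adjusted p there was 1.15e-07, for Grm3. Without the filter it also called 4 members against Nestin-Cre controls and 4 for the interaction. The genes called in all for these 2 are given with the dependence on processing below. Without male Nestin-Cre control replicate 2, edgeR called 4 members for the interaction, Grm5 (0.60, adjusted p = 0.0189), Grin2b (0.68), Gria2 (0.41) and Grid1 (0.28). It then called 1503 genes in all, where the fit on all mice called 1 of 18433. Without that mouse it also called Grin2b (0.46), Grm5 (0.36) and Cacng5 (0.50) between Egr1cKO and Nestin-Cre control mice. They were among 972 genes, where the fit on all mice called 1 of 18433. Without male Egr1f Cre- replicate 1 it called Grm5 for the interaction, among 325 genes. In each of these fits the calls of members came with many more calls over all genes, so they are not particular to the members. Grin2b was at 1191 CPM in that Nestin-Cre control mouse and at 629 to 716 CPM in the other 5 of its genotype.

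The 24 mice differed in the share of their reads that fell on long genes. Over 2434 protein-coding genes spanning more than 100 kb, with the members left out, this share ran from 18.1 to 22.3%. It was 21.2 to 22.0% in 5 Egr1cKO mice and 18.9% in the other, male replicate 3. In Egr1f Cre- mice it ran from 18.1 to 21.3%, in wild-type mice from 19.7 to 21.2%, and in 5 Nestin-Cre controls from 18.4 to 19.8%. The sixth, male Nestin-Cre control replicate 2, had the highest value of all 24, 22.3%. The share was examined after the data were seen.

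Some long members followed this share and others did not. Of the 31 tested members, 11 were higher and 2 lower in mice with a higher share, beside 16.5% and 17.1% of all genes. Of the 18 members longer than 100 kb, 11 were higher in mice with a higher share (permutation test of Pearson's r over 24 mice, 100000 permutations, p adjusted over all 18433 genes), as were 44.2% of all genes of that span. Of the 13 members up to 100 kb, 0 were, beside 12.3% of all such genes. These counts depend on the coefficient. By a permutation test of Spearman's rho, Cacng5 (40.45 kb) and Grin2a were higher too (rho of 0.51 and 0.50, adjusted p of 0.0388 and 0.0441). By the same test Gria3 and Grin3a were not (adjusted p of 0.0504 and 0.0699). Grik5, at 62.5 kb, and Cnih3, at 108 kb, were the members that were lower, with r values of -0.68 and -0.54 (permutation p of 0.00035 and 0.00616, adjusted 0.00206 and 0.022). Grm5, which spans 551 kb, had an r of 0.94 and a rho of 0.92 over the 24 mice, each with a permutation p of 1e-05, the smallest possible, and adjusted p values of 0.000121 and 0.000127. Its r was 0.92 without the 2 mice farthest from the median share, 0.88 within the 12 Egr1wt mice and 0.98 within the 12 Egr1f mice. For Gria2 (121 kb) r was 0.88 and rho 0.85, and for Grin2b (460 kb) 0.87 and 0.92, with the same permutation p values as Grm5. Without the 2 farthest mice r was 0.85 for Gria2 and 0.83 for Grin2b. Within the Egr1wt and the Egr1f mice, r was 0.87 and 0.94 for Gria2 and 0.85 and 0.88 for Grin2b. Other long members did not follow the share at the threshold. Gria4 (378 kb) and Grik2 (694 kb) had r values of -0.012 and 0.072, with adjusted permutation p values of 0.97 and 0.83.

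**Figure D4:**
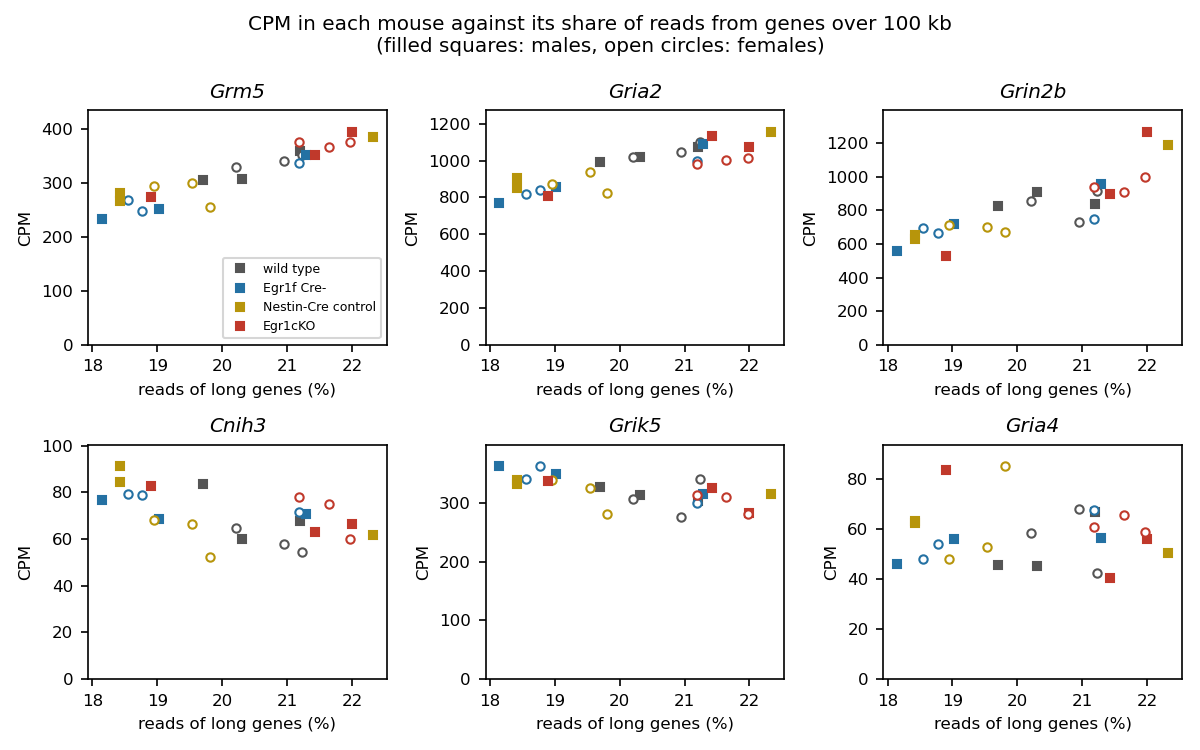
CPM of 6 members in each mouse against the share of its reads on other protein-coding genes over 100 kb (percent), by genotype and sex. Grm5, Gria2 and Grin2b rise with the share (r of 0.94, 0.88 and 0.87), Cnih3 and Grik5 fall (r of -0.54 and -0.68) and Gria4 is scattered (r of -0.012).

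The same order was seen in the change with Egr1cKO. Over all tested protein-coding genes, the median log2FC against Egr1-intact mice was -0.069 for spans under 10 kb, -0.024 from 10 to 30 kb, 0.038 from 30 to 100 kb, 0.093 from 100 to 300 kb and 0.15 above 300 kb. The 7 members from 100 to 300 kb had a median of 0.097 and the 11 members above 300 kb a median of 0.11. The share averaged 21.2% in Egr1cKO and 19.9% in Egr1-intact mice. A fit with the share as a covariate therefore cannot tell a change with Egr1cKO from a change with the share. In that fit 0 members were called in any of the comparisons, and its counts over all genes are not given here. The log2FC against Egr1-intact mice was then 0.034 for Grm5 (SE 0.046), 0.12 for Grm3 (SE 0.11), 0.19 for Grin3a (SE 0.12), -0.044 for Grin2b (SE 0.078) and -0.092 for Gria2 (SE 0.042), and the lowest adjusted p of a member was 0.66 from edgeR. The SE of Grm5 fell from 0.089 to 0.046. Why the share differs between mice was not tested.

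**Figure D5:**
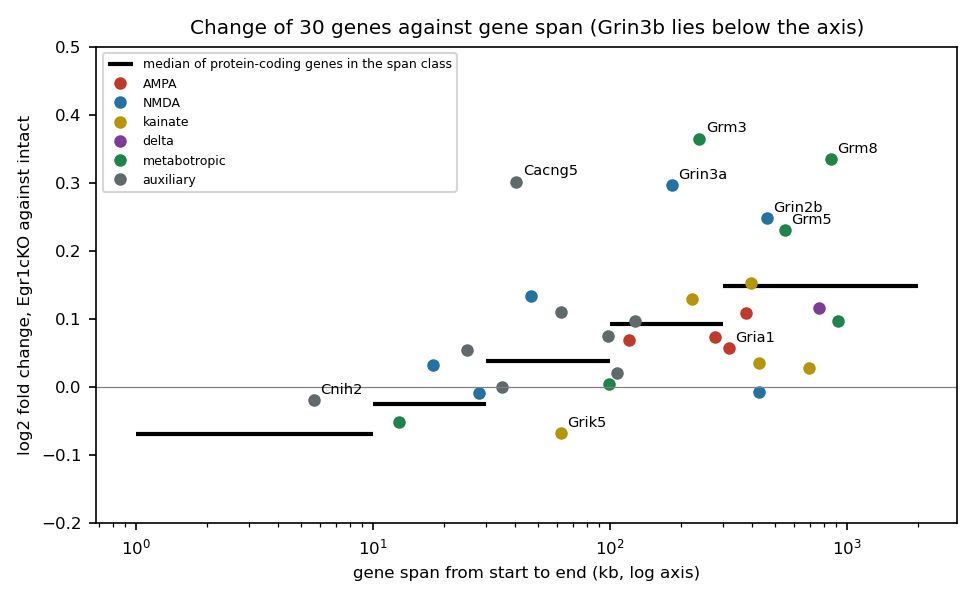
Log2FC in 6 Egr1cKO against 18 Egr1-intact mice of 30 members by gene span (kb, log axis), with the median of all tested protein-coding genes in each of 5 span classes (lines). The lines climb from -0.069 to 0.15, and Grm3, Cacng5, Grin3a and Grm8 lie well above the line of their class. Grin3b, at -1.42, lies outside the axis.

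Markers of other cells were compared in the same way. The oligodendrocyte genes Mobp, Mog and Mag, which encode myelin proteins, had log2FCs below 0 in Egr1cKO against Egr1-intact mice, -0.37 (SE 0.11), -0.24 (SE 0.096) and -0.24 (SE 0.096). They were 3 of 4 markers with an unadjusted p under 0.05, and the list had a median of -0.24 with all 4 below 0. None was called by edgeR, with adjusted p values of 0.20, 0.25 and 0.25. Mobp averaged 518 CPM in Egr1cKO, 742 in Egr1f Cre-, 669 in Nestin-Cre control and 591 in wild-type mice. Astrocyte markers, led by Gfap, had a median log2FC of 0.13 and interneuron markers, led by Gad1, of 0.034. The choroid plexus gene Ttr was above 100 CPM in 5 mice, among them male Egr1cKO replicate 2 at 1033 CPM and female Nestin-Cre control replicate 1 at 1913 CPM. Without these 5 mice edgeR called 0 members against any control group, for the floxed allele, Cre or their interaction. The count was also 0 between the sexes and for the difference of the change between the sexes. With all mice each of these counts was 0 as well. The part of these cells in the values of the members was not tested.

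Sex was compared last. Between the 12 females and 12 males 0 of 30 members were called by edgeR or DESeq2, beside 0.0701% of all genes, and 1, Grm4, had an unadjusted p under 0.05 (5.66% of all genes), higher in females (2.83%). For Grm4, a group III receptor, the log2FC of females against males was 0.32 (SE 0.15, adjusted p = 0.86 from edgeR). For 20 of the 30 members the 95% interval lay inside a 1.2-fold change. The change with Egr1cKO did not differ between the sexes at the threshold for any of 31 members by edgeR or DESeq2, where 0.00507% of all genes were called by edgeR, and 0 members had an unadjusted p under 0.05 (6.09% of all genes). With 3 Egr1cKO mice per sex these intervals were wide, and for 29 of the 31 members they reached past a 1.2-fold difference. In females alone, 0 of 31 members were called by edgeR beside 0.182% of all genes, and 4 had an unadjusted p under 0.05 (15.2%), all higher (7.14%): Grm3, Grin3a, Grm5 and Grid1, with log2FCs of 0.40, 0.40, 0.30 and 0.21. In males alone, 0 were called by edgeR beside 0.00507%, and 2 had an unadjusted p under 0.05 (4.49%), Cacng5 higher (2.54%) at 0.36 (SE 0.17) and Grin3b lower (1.95%), for which the limit of the filter given above holds.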

How the data were processed

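Hippocampi of 24 mice were sequenced as poly(A)-selected libraries that keep no strand (150 bp paired ends). The authors aligned the reads to GRCm38 and deposited raw counts per gene. The submitters' processing notes name Trim Galore 3.8.2, FastQC and STAR 2.7.9. The paper names other versions of Trim Galore and STAR. Counts with no gene annotation were at most 0.00318% of a library.

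The 32 members were taken by symbol, and members and gene lists were chosen with earlier results of these data known. Counts were fitted with edgeR 4.0.16 (TMM, filterByExpr with a minimum count of 10, quasi-likelihood test, Benjamini-Hochberg over all genes tested) in R 4.3.3. Genotypes were fitted with sex as a term, and sexes within genotype by 8 group means. FPKM used the exonic length of GENCODE M21. Full values are given for the most abundant member and the member with the largest log2FC of each class, and the 2 most abundant genes of each partner list are named. Other genes were named after their values were seen. Alternatives were DESeq2 1.42.0 and its size factors, no filter, no minimum FC, sex or genotype as a covariate, only the mice compared, the replicate block, each mouse left out, another gene length or library size for levels, and, chosen after seeing the data, the share of reads on TEC genes (a GENCODE class of unverified transcripts) or long genes as a covariate and leaving out mice over 100 CPM of Ttr. Labels do not say that samples are littermates, and p-values measure the spread between mice. Fits were tested on simulated data, and the outcome is not given here. With at least 18025168 counts per mouse, all members except Grin3b and Grm6 had over 100 reads on average. A further oligodendrocyte marker is not reported here by itself.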

Additional observations from a re-analysis of the deposited data

Results flagged for a closer look

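Within each genotype the highest or lowest of the 6 mice was compared with the nearest by Dixon's test on CPM. The gap passed the 95% critical value in 19 of 126 groups, where chance gives about 1 in 20, and members of a mouse share its library. For 6 of these, the mouse was male Nestin-Cre control replicate 2, as the highest of its genotype. In that mouse Gria2 was at 1157 CPM (next 935.3), Grin1 at 416.3 (next 365.9), Grin2b at 1191 (next 715.5), Grid1 at 86.06 (next 71.12), Grm5 at 385.7 (next 299.7) and Cacng5 at 19.47 (next 10.81). This mouse also had the highest share of reads on long genes, 22.3%.

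Male Egr1cKO replicate 3 stood apart in both directions. Gria1 at 829.2 CPM (next 1120) and Grm5 at 274.2 (next 352.2) were the lowest of the Egr1cKO mice, and Grin2d at 31.93 (next 22.02), Cacng3 at 76.99 (next 59.78) and Cacng4 at 39.57 (next 30.29) were the highest. Its share of reads on long genes, 18.9%, was the lowest of the 6 Egr1cKO mice. The part of this share in these values was not tested mouse by mouse.

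In the other Egr1cKO mice, Gria3 was lowest in female replicate 2 at 214 CPM (next 234.7) and Grin3a in male replicate 2 at 33.54 (next 56.08). Among Nestin-Cre controls, Grik3 reached 93.01 CPM in female replicate 1 (next 60.23), Grm2 reached 82.93 in male replicate 1 (next 71.01) and Grin3b reached 1.413 in female replicate 3 (next 0.474). Gria3 was at 204.6 CPM in male wild type replicate 2 (next 231.8). Grm6 was at 0.2226 CPM in male wild type replicate 2 and at 0.1514 in female Nestin-Cre control replicate 3, from 5 and 3 reads, with no read in the other mice of these genotypes.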

How the results depend on the processing

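Between Egr1cKO and the 18 Egr1-intact mice, 0 members were called in any of 33 alternatives. The lowest adjusted p of a member was between 0.0656 and 0.66, and 1 to 215 genes were called in all. The same count of members held for the floxed allele alone (0 to 82 genes in all), for Cre alone (0 to 175) and for both comparisons of sex (8 to 18 for females against males). Where few genes were called in all, a count of 0 members says little about them. Without the filter on low counts, edgeR called 4 members among 803 of 36605 genes against Egr1f Cre- mice, 4 among 794 against Nestin-Cre controls and 4 among 1173 for the interaction. Their lowest adjusted p values were 1.15e-07 for Grm3, 0.0136 for Grin2b and 0.000107 for Grm3, at the low ends of ranges over the alternatives that reached up to 0.91, 0.76 and 1.0. DESeq2 called 1 member for the interaction, among 306 of 3250 genes. With 1 mouse left out, counts ran from 0 to 3 against Nestin-Cre controls and from 0 to 4 for the interaction, as described above for 2 mice. The cause of these changes was not tested.

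For Egr1cKO against the 18 Egr1-intact mice alone, 1024 alternative log2FCs of single members and Egr1 were compared. Of these, 955 kept their direction and side of the threshold and 69 changed sign, 48 of them with 1 mouse left out. With the share of TEC reads as a covariate, log2FCs were -0.036 for Gria1, -0.020 for Grik4, -0.057 for Cacng8 and -0.024 for Cnih3. With the share of long genes they were -0.054 for Gria1, -0.092 for Gria2, -0.044 for Grin2b, -0.11 for Grik4, 0.0070 for Grik5, 0.00042 for Grm2, -0.0064 for Grm7, -0.030 for Cacng2, -0.047 for Cacng8 and 0.027 for Cnih2. Without the mice over 100 CPM of Ttr they were -0.023 for Gria1, -0.024 for Gria2, -0.016 for Grik2, -0.042 for Grik4 and -0.038 for Cacng8. Cacng7 was at -0.0013 by DESeq2 and -0.0017 with its size factors. With 1 mouse left out, ranges that crossed 0 were -0.0019 to 0.20 for Gria4, -0.030 to 0.014 for Grin1, -0.056 to 0.074 for Grin2a, -0.023 to 0.20 for Grin2d, -0.028 to 0.25 for Grik1, -0.0016 to 0.067 for Grik2, -0.022 to 0.14 for Grik4, -0.080 to 0.13 for Grm4, -0.018 to 0.11 for Cacng3, -0.042 to 0.022 for Cacng7, -0.085 to 0.030 for Cnih2 and -0.027 to 0.060 for Cnih3.

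The longest transcript as length gave FPKM values in wild-type mice of 206 for Gria1, 101 for Gria2, 44.3 for Gria3, 90.7 for Grin1, 29.1 for Grin2a, 3.45 for Grin2d, 6.44 for Grin3a, 3.40 for Grik1, 11.7 for Grik2, 76.6 for Grik5, 13.3 for Grid1, 41.4 for Grm5, 2.40 for Grm4, 13.8 for Grm7, 0.97 for Grm8, 59.0 for Cacng7 and 85.5 for Cacng8. The class shares became 48.1% for AMPA, 23.8% for NMDA, 14.5% for kainate, 1.78% for delta and 11.8% for metabotropic genes.

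Mice with the same number did not deviate together (mean correlation -0.0027, range -0.27 to 0.37, and 7 of 24 mice correlated best with their own number), so the numbers do not pair mice. With the replicate block 0 members were called in every comparison, and its counts over all genes are not given here. Depth limits Grin3b and Grm6 above all. Without the mice over 100 CPM of Ttr, 1 male Egr1f Cre- mouse remained, and the comparison of the change between sexes then assumed that it varies like the other groups.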

Other observations

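The genes that work beside the receptors, named here after their values were seen, gave these log2FCs in Egr1cKO against Egr1-intact mice, each with an adjusted p above 0.05 from edgeR. Among postsynaptic scaffold and signalling genes, the 7 at an unadjusted p under 0.05 were Dlg2 (0.22), Dlgap2 (0.27), Dlgap4 (0.15), Homer1 (0.29), Homer2 (0.30), Shank2 (0.14) and Shank3 (0.19). They encode proteins that anchor NMDA and metabotropic receptors at the postsynaptic density, and 16 of the 20 genes of this list had an estimate above 0, beside 48.2% of all genes, of which 8.11% were higher at an unadjusted p under 0.05. These shares over all genes take no account of gene span, with which the log2FC of protein-coding genes rose, as given above. The spans of the listed genes were not compared. In females alone 7 of the 20 were higher at that p (7.14% of all genes), and in males alone 0 (2.54%). In either sex 0 were lower, and the list medians were 0.17 and 0.056. The change differed between the sexes at that p for 0 of the 20 (6.09% of all genes). Among the other AMPA and kainate receptor partners, Neto2 (0.18), which modulates kainate receptors, Shisa9 (0.13) and Nptxr (0.12) were above 0, and Cpt1c (-0.13) and Pick1 (-0.22) were below. In glutamate metabolism Glud1 (0.13) and Srr (0.15), the serine racemase gene that supplies the NMDA receptor co-agonist, were above 0.

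Of the other marker lists, 0 genes were called in Egr1cKO against Egr1-intact mice by edgeR. At an unadjusted p under 0.05, 2 of 5 fibroblast, 2 of 3 endothelial, 2 of 3 oligodendrocyte precursor, 2 of 4 microglia, 1 of 4 astrocyte, 1 of 7 striatal and 1 of 4 CA1 markers were higher, 1 of 4 CA3 markers was lower, and interneuron markers had 1 in each direction, beside 8.11% of all genes higher and 7.0% lower. The oligodendrocyte genes Mobp, Mog and Mag, given above, were lower at that p. Median log2FCs were 0.51 for fibroblasts, 0.29 for endothelium, 0.20 for oligodendrocyte precursors, 0.16 for microglia, 0.27 for striatum, -0.27 for choroid plexus, -0.049 for thalamus, 0.46 for cerebellar granule cells, -0.034 for cortex, 0.23 for hypothalamus, -0.039 for CA2, -0.033 for CA3 and 0.023 for dentate gyrus. The part of these cells in the values of the receptor genes was not tested.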
